A study of Homo sapiens and synthetic construct with 14 samples.

Results

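The pairs described here joined 1 of the 8 enhancers En01 to En08 to a named element in the silencer position of the MPRAduo benchmark library. MPRAduo is a pooled reporter assay: each plasmid holds a pair of test elements and a barcode that identifies the pair, and sequencing counts the barcode in reporter RNA and in the plasmid pool. The members were all lines of both benchmark count tables with an enhancer of En01 to En08 and a named element. They numbered 10429 pairs in each run, of 27147 constructs, and held 1395 elements. By the authors' class labels these were 644 random elements, 257 GFI1, 127 YY1, 126 CTCF_TAD, 87 CTCF, 83 REST and 67 positive elements, and the single elements cHS4, Smirnov_C3, Smirnov_C6a and Smirnov_C8.

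Both runs used GM12878, an established lymphoblastoid B-cell line, electroporated with the plasmid pool and left to recover for 24 hours before total RNA was extracted and the GFP messenger RNA was captured and reverse transcribed. The design text calls run1 an SE library and run2 an ES library, read here as element then enhancer in run1 and enhancer then element in run2. Counting used 4 biological replicates, so each run had 4 RNA and 4 plasmid libraries. No genotype, allele or agent separates the runs. All cells were of this 1 line.

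REST is a zinc finger repressor that binds the RE1 motif and keeps neuronal genes silent outside neurons through histone deacetylase and demethylase complexes. GFI1 is a zinc finger repressor of blood cell development, and YY1 is a zinc finger factor that can activate or repress. CTCF organises chromatin loops and the borders of topologically associating domains, and cHS4 is an insulator of the chicken beta-globin locus that holds a CTCF site. In a reporter such elements act outside their native chromatin, and binding of the factors was not measured here.

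In both tables the columns headed plmd behaved as RNA and those headed cDNA as plasmid. The fold change in the authors' deposited table correlated at 0.983 in run1 and at 0.998 in run2 with the ratio of plmd-headed to cDNA-headed counts over 10241 pairs. The cDNA-headed libraries resembled each other closely, with correlations of log2 counts from 0.970 to 0.973 in run1 and from 0.955 to 0.963 in run2. The plmd-headed libraries of run1 correlated at 0.680 to 0.737 and those of run2 at 0.853 to 0.918. The plmd-headed columns were therefore read as the RNA side throughout. Reading the headings literally turns the sign of the effects and fold changes given below. Lower and higher calls then change places, with somewhat different counts.

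Over these pairs the RNA-side libraries held 7171970 to 16606220 counts in run1 and 16660503 to 28958344 in run2. The plasmid-side libraries held 10872857 to 24924900 and 20713667 to 31096252 counts. A pair had a median of 63 barcodes in run1 and 120 in run2, and at least 10. Beside En05 the medians were lowest, at 31 and 52.5 barcodes, and the median standard error of a pair's log2 fold change was highest there, at 0.37 in run1 and 0.34 in run2, against 0.25 and 0.15 beside En07. Calls beside En05 therefore rest on less depth than those beside the other enhancers.

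With random elements in the silencer position, the 8 enhancers gave median RNA below the level of the library totals, or near it beside En05 and En08 in run2. The median log2 ratio of RNA to plasmid, each scaled to its library total, was -1.92 beside En01, -1.81 beside En02, -1.33 beside En03 and -1.35 beside En04 in run1. It was -0.93 beside En05, -1.17 beside En06, -0.86 beside En07 and -0.92 beside En08, with SDs over the 4 RNA-side libraries from 0.05 to 0.13. In run2 it was -2.16, -2.14, -1.002 and -1.07 beside En01 to En04, and -0.11, -0.90, -0.70 and -0.07 beside En05 to En08, with SDs from 0.04 to 0.18. En01 and En02 were the weakest in both runs and lay closer to each other than to any of the others. The enhancers with no element beside them gave 0.94 to 1.78 more than with random elements in run1, and between 0.55 less and 0.89 more in run2, where the difference beside En05 was -0.55.

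Below, the effect of a pair is the log2 ratio of its RNA side to its plasmid side after scaling, minus the median over the random elements beside the same enhancer, so that 0 is the level of a typical random element and a value below 0 is less RNA than that. A call is an adjusted p under 0.05. In run1, edgeR's quasi-likelihood test called 114 of the 10429 pairs lower than random elements, or 1.09%, and 1035 higher, or 9.92%. In run2 it called 1042 of 10425 pairs lower, or 10% of those tested, and 3051 higher, or 29.3%. Random pairs were themselves called lower in 37 and higher in 255 of 4811 pairs in run1, or 0.769% and 5.30%, and in 558 and 841 of 4808 pairs in run2, or 11.6% and 17.5%. These shares of random pairs are the level against which every class below is read.

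The split between lower and higher calls in run1 depended on the zero point. The fitted fold changes of random pairs had a median slightly above 0 in run1, and with that median moved to 0 the calls were 189 lower and 854 higher. With the libraries scaled on summed random counts, run1 had 597 decreases and 617 increases, and run2 had 1969 decreases and 2442 increases. That scaling moved the median random pair from -0.01 to -0.32 in run1 and from -0.05 to -0.24 in run2, and TMM within each enhancer moved it to -0.11 and -0.24 and gave 187 lower and 857 higher, and 1983 lower and 2452 higher. Leaving out any 1 plasmid-side library left 713 to 721 calls in run1, so the number of calls there rests on having all 4, and random pairs called lower then numbered 7 to 9. Without any 1 RNA-side library they numbered 74 to 96. Class medians are taken relative to the random median beside the same enhancer, so these scalings left them as they were.

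REST elements had a low median beside these enhancers in both orders, with single pairs spread widely on both sides of the random level. Over 625 pairs of 83 elements the median effect in run1 was -0.13, from RNA-side libraries at -0.09, -0.16, -0.09 and -0.14. In run2 it was -0.22, from libraries at -0.26, -0.24, -0.22 and -0.27. All 8 library values lay below 0, and those of run2 lay below those of run1. Of the pairs, 56.8% were below 0 in run1 and 65.6% in run2.

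In run1, 24 REST pairs were called lower, or 3.84% against 0.769% of random pairs, and 59 were called higher, or 9.44% against 5.30%. In run2, 169 were called lower, or 27.0% against 11.6%, and 94 higher, or 15.0% against 17.5%. Scaling on summed random counts turned the split of run1 to 69 lower and 28 higher, with random pairs at 268 and 108, and raised the lower calls of run2 to 266, with random pairs at 1114. In run1 the lower REST calls numbered 8 to 12 without any 1 plasmid-side library, 43 without RNA-side library 1 and 39 without RNA-side library 2, and the higher ones 34 to 37 without any 1 plasmid-side library.

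The REST class median was lower beside some enhancers than beside others. In run1 the class median was -0.07 beside En01, 0.01 beside En02, -0.03 beside En03, -0.07 beside En04 and 0.03 beside En05. It was -0.35 beside En06, -0.25 beside En07 and -0.33 beside En08, and there every library gave a value below 0. In run2 the medians were -0.18, -0.16, -0.18, -0.09 and -0.07 beside En01 to En05, and -0.67, -0.40 and -0.41 beside En06 to En08. These medians are descriptions. In the limma test of each pair against its element's mean over the other enhancers, 0 of 614 REST pairs were called below and 1 above in run1, with 34 below and 30 above at an unadjusted p under 0.05. In run2 25 were called below and 33 above, and beside En07 4 below and 5 above.

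The calls of run2 followed the same division. Beside En06 48.15% of REST pairs were called lower, beside En07 48.8% and beside En08 43.2%, while the share was 3.23% to 22.8% beside En01 to En05. Random pairs were called lower in 13.6%, 17.5% and 18.5% of pairs beside En06, En07 and En08, and in 2.48% to 10.4% beside En01 to En05. En05 and En08 had the highest random output of the 8 in run2, and En05 had a REST median near 0 and the fewest barcodes. Over the 8 enhancers the REST median correlated with random output at a Pearson coefficient of -0.48 in run1 and -0.24 in run2. This is a description over 8 points that share their libraries. The random output was also subtracted to give each REST median, so a coefficient below 0 can arise from the subtraction alone.

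Averaged over the enhancers beside which they were measured, 80 REST elements could be tested with limma. In run1 16 fell below random elements and 10 rose above them, or 20% and 12.5%, where 30.1% of all 1329 elements were called, 7.37% lower and 22.7% higher. In run2 48 fell and 15 rose, or 60% and 18.8%, where 68.5% of all elements were called, 28.1% lower and 40.4% higher. The element means ran from -1.05 to 2.06 with a median of -0.14 in run1, and in run2 the median was -0.38. Random elements were lower in 7.15% and 35.6%, and higher in 15.6% and 28.6%. With element means centred on the random elements, run2 had 45 REST elements lower, and 168 random elements against 219 without centring. Without any 1 plasmid-side library 9 to 12 REST elements were called lower in run1, and 16 to 18 random elements, against 44 with all libraries. Over all classes the lower calls of run1 fell from 98 to between 35 and 43 in that way and rose to 170 without RNA-side library 1, where REST gave 21. All 16 REST elements lower in run1 were also lower in run2, and 7 of the 80 were higher in both. Of the 44 random elements lower in run1, 34 were lower in both runs, and 74 of 615 random elements were higher in both. Over all classes 75 of the 98 were lower in both, and 263 of 1329 were higher in both. Scaling on summed random counts gave 46 decreases and 8 increases in run1, and 59 and 13 in run2. The REST decreases were then 57.5% and 73.8% of the elements, where 299 and 326 of 615 random elements were lower, or 48.6% and 53.0%, and 38 and 116 were higher, or 6.18% and 18.9%. Of the 80 windows, 18 overlapped another REST window, so the elements are not all separate loci.

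Several of the lowest element means held a pair with 0 RNA-side counts in 1 library, where the value depends on the pseudocount of 0.5 added before taking logs. For these the mean with a pseudocount of 5 is given too. Genome coordinates here and below are those in the element names, each 200 bases long, and the sources used here do not name their build.

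A well covered example was the REST element chr19:4769653-4769853. Beside En07 in run2 it had 171 barcodes and gave 1391, 1672, 1797 and 1398 RNA-side counts against 5856, 7606, 6463 and 5413 plasmid-side counts. The effects were -1.63, -2.01, -1.50 and -1.38, all far below the random level, with a fold change of -1.61 (SE 0.13, edgeR adjusted p = 8.5e-09). Over the 8 enhancers its effect in run2 was -0.53, -0.75, -0.26, -0.41 and -0.52 beside En01 to En05 and -1.17, -1.61 and -1.47 beside En06 to En08. Its lowest effects lay beside En06 to En08, and its mean was -0.89 (SE 0.08, limma adjusted p = 1.5e-08).

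In run1 the same element gave library means of -0.50, -0.57, -0.74 and -0.05, with an overall mean of -0.46 (SE 0.13, limma adjusted p = 0.0153). Among the 8 enhancers edgeR called it lower there beside En06, at -0.93, and beside En08, at -1.16. The element chr19:5356460-5356660 was called lower beside the same enhancers in run1, at -1.50 and -1.11, and in run2 it had effects of -1.16 and -1.50 there. Its run1 call beside En06 was lost without plasmid-side library 2.

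The element chr5:7010800-7011000 was below 0 beside all 8 enhancers in both runs. Its library means were -0.63, -0.71, -0.88 and -1.06 in run1 and -1.03, -0.61, -1.12 and -0.81 in run2. They gave means of -0.82 (SE 0.13, limma adjusted p = 0.000299) and -0.89 (SE 0.10, limma adjusted p = 5.8e-07). The call of run1 was lost without En05, beside which 10 barcodes gave 0, 172, 60 and 45 RNA-side counts. With a pseudocount of 5 the run1 mean was -0.71 (limma adjusted p = 0.00415).

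In run2 the best covered low pairs of chr5:7010800-7011000 were those beside En07, from 95 barcodes, and En08, from 98. Beside En07 the libraries gave -1.08, -0.70, -0.81 and -1.26 (edgeR adjusted p = 0.000104). Beside En08 they gave -1.61, -1.17, -0.68 and -1.33 (edgeR adjusted p = 0.000143).

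By the mean of both runs the lowest REST element called in both was chr18:5868356-5868556, measured beside 7 enhancers with 10 to 30 barcodes a pair in run2. Its library means were -0.99, -0.49, -1.89 and -0.82 in run1 and -2.59, -0.99, -1.31 and -1.37 in run2, all below the random level. The 2 lowest of these each include a pair with 0 RNA-side counts, beside En01 in run1 and beside En03 in run2, and library 1 of run1 had 0 beside En02. The overall means were -1.05 (SE 0.29, limma adjusted p = 0.0151) and -1.56 (SE 0.27, limma adjusted p = 8.6e-05), and -0.78 and -1.40 with a pseudocount of 5. The run1 call was lost without plasmid-side library 3 or 4 and without En02.

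That element also gave the largest called decrease of a pair in run2. Beside En07, from 14 barcodes, it had 178, 201, 71 and 19 RNA-side counts against 655, 938, 704 and 521 plasmid-side counts. The effects of -1.40, -1.88, -2.96 and -4.36 spread over several log2 units, and the fold change was -2.28 (SE 0.45, edgeR adjusted p = 0.000484). By the rule for named pairs, the 4 largest decreases of run1 were random elements, from -2.11 beside En03 to -1.49 beside En04. All but the last of these calls were lost without plasmid-side library 1. The decreases ranked 3 and 4 in run2 were random elements too, at -1.97 and -1.65 beside En06.

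The REST element chr18:5370428-5370628 had library means of -1.29, -1.16, -0.77 and -0.23 in run1 and -1.15, -0.58, -1.004 and -1.15 in run2. The overall means were -0.86 (SE 0.21, limma adjusted p = 0.00828) and -0.97 (SE 0.13, limma adjusted p = 3.8e-06). The element chr5:8316794-8316994 had means of -0.67 and -0.88 (limma adjusted p = 0.00406 and 2.0e-05). For chr12:11653592-11653792 they were -0.67 and -0.82 (limma adjusted p = 0.0205 and 0.00142). Library 1 of run1 lay lowest there, at -1.39, with 0 RNA-side counts beside En05, and the other 3 lay between -0.48 and -0.38. That run1 call was lost without plasmid-side library 1 or 3 and without En08.

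A minority of REST elements gave more RNA than random elements. Called higher were 12.5% of REST elements in run1 and 18.8% in run2, below the 15.6% and 28.6% of random elements. The strongest REST element, chr19:2169150-2169350, gave 2.08, 2.03, 2.21 and 1.93 in the libraries of run1 and 2.71, 2.59, 2.71 and 2.76 in those of run2. It was called higher beside each of the 8 enhancers in both runs, with means of 2.06 (SE 0.08, limma adjusted p = 1.0e-09) and 2.69 (SE 0.06, limma adjusted p = 6.5e-17). The element chr19:2608138-2608338 had means of 1.46 and 2.20 (limma adjusted p = 9.1e-06 and 1.1e-14). For chr19:54448797-54448997 the means were 0.61 and 2.32 (limma adjusted p = 7.4e-05 and 9.4e-15), and the difference between the runs was itself called, at 1.71 (SE 0.11, limma adjusted p = 5.9e-11).

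YY1 elements were mostly above the random level. The median effect over 960 pairs was 0.27 in run1, from libraries at 0.28, 0.31, 0.26 and 0.27, and 0.69 in run2, from libraries at 0.70, 0.67, 0.60 and 0.71. In run1 146 pairs were called higher, or 15.2%, and 12 lower, and without any 1 plasmid-side library 87 to 93 were called higher and 1 at most lower. In run2 507 were higher, or 52.8%, and 31 lower. Of 122 tested elements 49 rose and 5 fell in run1, or 40.2% and 4.10% against 15.6% and 7.15% of random elements. In run2 87 rose and 10 fell, or 71.3% and 8.20% against 28.6% and 35.6%. Both runs shared 46 of the increases and 5 of the decreases, where 74 and 34 of 615 random elements were shared. On summed random counts the elements of run1 split into 23 higher and 31 lower, or 18.9% and 25.4% against 6.18% and 48.6% of random elements. Those of run2 split into 73 and 19, or 59.8% and 15.6% against 18.9% and 53.0%.

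The YY1 median of run2 was 0.57 beside En02, the lowest of the 8, and 0.88 beside En08, the highest. In run1 it ranged from 0.07 beside En04 to 0.52 beside En06. Over the 8 enhancers the YY1 median correlated with the output of random elements at a Pearson coefficient of 0.83 in run2 but 0.17 in run1, and over 20 enhancers at -0.22 in run2 and -0.69 in run1. For GFI1, CTCF, CTCF_TAD and positive elements the coefficients over the 8 were -0.73, -0.68, -0.77 and -0.74 in run2, and -0.16, -0.43, -0.54 and -0.099 in run1. These describe few points that share libraries. The random output was also subtracted to give each class median, so a coefficient below 0 can arise from the subtraction alone.

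The YY1 element chr9:36450247-36450447 went against its class. Its library effects were -0.90, -0.64, -0.64 and -0.16 in run1 and -0.45, -1.01, -1.83 and -0.73 in run2, all below 0. The means were -0.59 (SE 0.16, limma adjusted p = 0.0138) and -1.01 (SE 0.21, limma adjusted p = 0.00051), or -0.89 in run2 with a pseudocount of 5, since library 3 had 0 RNA-side counts beside En05. The run1 call was lost without plasmid-side library 2, En02 or En05. Beside En02 the element gave -1.47 in run1, from 12 barcodes, and 0.48 in run2, from 56 barcodes. In run2 its difference between En02 and the other 7 enhancers was 1.63 (SE 0.33, limma adjusted p = 0.00483).

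GFI1 elements, the largest class after the random one, were also above it on balance. Over 1949 pairs the median was 0.16 in run1, from libraries at 0.17, 0.17, 0.18 and 0.14, and 0.30 in run2, from libraries at 0.33, 0.28, 0.31 and 0.31. Pairs called higher numbered 268 in run1, or 13.8%, and 766 in run2, or 39.3%, and those called lower 12 and 127, or 0.616% and 6.52%. Both shares of lower calls were below those of random pairs. Among 247 tested elements 78 rose and 8 fell in run1, or 31.6% and 3.24% against 15.6% and 7.15% of random elements. In run2 122 rose and 49 fell, or 49.4% and 19.8% against 28.6% and 35.6%. In both runs 71 rose and 5 fell, where 74 and 34 of 615 random elements did. Summed random counts gave 40 increases and 81 decreases in run1, or 16.2% and 32.8%, against 6.18% and 48.6% of random elements. The class holds 38 elements whose windows overlap another GFI1 window.

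By enhancer, the GFI1 median of run2 fell from 0.38 beside En01 and 0.43 beside En02 to 0.23 beside En07 and 0.17 beside En08. The highest GFI1 element by the mean of both runs, chr6:14877407-14877607, gave 2.99, 2.95, 2.95 and 3.02 in run1 and 3.14, 2.90, 3.39 and 3.13 in run2. The difference between the runs, at 0.17 (SE 0.10, limma adjusted p = 0.207), did not pass the test. The lowest, chr18:9410600-9410800, gave -1.79, -0.51, -0.63 and -0.43 in run1 and -1.05, -0.87, -1.57 and -0.48 in run2. Library 1 of run1, the lowest, had 0 RNA-side counts beside En02, from 13 barcodes. The element's call in run1 (limma adjusted p = 0.0324) was lost without any 1 plasmid-side library and without En03 or En07, while that of run2 (limma adjusted p = 0.00012) was not lost without any 1 library.

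CTCF elements lay close to the random level in run1 and above it in run2. Their median over 599 pairs was 0.08 in run1, from libraries at 0.02, 0.08, 0.14 and 0.04, and 0.48 over 598 pairs in run2, from libraries at 0.55, 0.54, 0.37 and 0.60. Of the pairs, 42 were called higher and 5 lower in run1, or 7.01% and 0.835%. In run2 251 rose and 33 fell, or 42.0% and 5.52%. Of 75 tested elements 16 rose and 5 fell in run1, or 21.3% and 6.67%. Random elements gave 15.6% and 7.15%, and all elements 22.7% and 7.37%. In run2 45 rose and 11 fell, or 60% and 14.7% against 28.6% and 35.6% of random elements. On summed random counts run1 gave 6 increases and 27 decreases, or 8% and 36%, against 6.18% and 48.6% of random elements. In run2 the median was 0.70 beside En01 and 0.81 beside En02 and was lowest beside En07, at 0.10.

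The elements labelled CTCF_TAD lay below the random level in run1 and near it in run2. Over 939 pairs the median was -0.16 in run1, from libraries at -0.19, -0.19, -0.14 and -0.16, and 0.08 in run2, from libraries at 0.06, 0.08, 0.05 and 0.09. Calls of run1 numbered 23 lower and 22 higher, or 2.45% and 2.34%, where 0.769% and 5.30% of random pairs were called. In run2 there were 107 lower and 185 higher, or 11.4% and 19.7%, close to the 11.6% and 17.5% of random pairs. Of 120 tested elements 18 fell and 8 rose in run1, or 15% and 6.67% against 7.15% and 15.6% of random elements. In run2 31 fell and 36 rose, or 25.8% and 30% against 35.6% and 28.6%. Of the 120, 12 fell in both runs, 8 rose in both and 2 went in opposite directions. Among 615 random elements these numbered 34, 74 and 9. Summed random counts gave 79 decreases and 2 increases in run1, or 65.8% and 1.67% against 48.6% and 6.18% of random elements. In run2 they gave 52 and 28, or 43.3% and 23.3% against 53.0% and 18.9%.

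Behind the run2 median of CTCF_TAD lay a wide range over enhancers. It was 0.36 beside En01, 0.39 beside En02, 0.17 beside En03 and En04, and 0.06 beside En05. Beside En06, En07 and En08 it was -0.08, -0.27 and -0.07. Beside En07 39.2% of the pairs were called lower and 7.20% higher, while beside En01 the shares were 2.50% and 40.0%. In the limma test of 1 enhancer against the others, 28 of 120 pairs beside En07, or 23.3%, lay below and 0 above. Beside En01, 27 of 119, or 22.7%, lay above and 0 below. All classes gave 9.87% below beside En07 and 9.75% above beside En01. At an unadjusted p under 0.05 the CTCF_TAD counts were 60 and 0 beside En07, and 57 and 1 beside En01.

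Among elements outside the random class called in both runs, the lowest by the mean of both was the CTCF_TAD element chr7:48149841-48150041, measured beside 5 of the 8 enhancers. Its library effects were -0.99, -2.09, -1.94 and -0.58 in run1 and -2.51, -0.78, -0.59 and -1.23 in run2. Every library was below 0, though they spread over more than 1.5 log2 units. The means were -1.40 (SE 0.40, limma adjusted p = 0.0201) and -1.28 (SE 0.31, limma adjusted p = 0.00171), or -1.02 and -1.09 with a pseudocount of 5, since 3 of the 10 pairs had 0 RNA-side counts in 1 library. The run1 call was lost without any 1 plasmid-side library. The CTCF_TAD element chr11:65183901-65184101 beside En02 had a fold change of -1.48 (SE 0.27, edgeR adjusted p = 0.00555) in run1 from 14 barcodes, and of 1.27 (SE 0.40, edgeR adjusted p = 0.016) in run2 from 65 barcodes.

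Among the single named elements, Smirnov_C8 lay below random elements in run2. Over 8 enhancers its library effects were -0.24, 0.03, -0.21 and -0.46 in run1, and -0.78, -0.57, -0.72 and -0.33 in run2. The mean of run1 was -0.22 (SE 0.11, limma adjusted p = 0.157) and that of run2 was -0.60 (SE 0.09, limma adjusted p = 2.0e-05). In run2 it was below 0 beside all 8 enhancers, from -0.08 beside En04 to -0.999 beside En08, and was called lower beside 5 of them.

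Smirnov_C3 and Smirnov_C6a did not lie below random elements in run2. Smirnov_C3 had a mean of 0.08 (SE 0.19, limma adjusted p = 0.796) in run1 and 0.67 (SE 0.10, limma adjusted p = 9.0e-06) in run2 over 7 enhancers. For Smirnov_C6a the means were -0.18 (SE 0.13, limma adjusted p = 0.309) and 0.33 (SE 0.06, limma adjusted p = 0.000152). The insulator cHS4 gave 0.48, 0.49, 0.22 and 0.24 in the libraries of run1, with a mean of 0.36 (SE 0.08, limma adjusted p = 0.00302). In run2 it gave 0.02, 0.35, -0.34 and 0.52, with a mean of 0.13 (SE 0.19, limma adjusted p = 0.542). Its pairs had 184 to 698 barcodes in run1 and 12 to 53 in run2, and beside En05 in run2 library 3 held 1 RNA-side count.

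Positive elements raised reporter RNA beside each of the 8 enhancers. Their median over 515 pairs was 0.85 in run1, from libraries at 0.93, 0.92, 0.90 and 0.85, and 1.79 in run2, from libraries at 1.86, 1.81, 1.71 and 1.89. In run1 241 pairs were called higher, or 46.8%, and 0 lower by edgeR, with 4 lower at an unadjusted p under 0.05 and 0 by DESeq2. In run2 398 were higher, or 77.3%, and 12 lower, or 2.33%. Of 66 tested elements 44 rose and 2 fell in run1, or 66.7% and 3.03% against 15.6% and 7.15% of random elements. In run2 54 rose and 5 fell, or 81.8% and 7.58% against 28.6% and 35.6%. In both runs 42 rose, where 74 of 615 random elements did.

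The median of the positive class was 2.22 beside En01 and 2.31 beside En02 in run2, and 1.61 and 1.56 beside En07 and En08. In run1 it was 1.15 beside En01 and En05 and 0.50 and 0.51 beside En07 and En02, so En02 was high in run2 alone. The strongest element, chr19:49378601-49378801, gave 2.75, 2.90, 3.19 and 2.92 in run1 and 5.15, 5.09, 4.86 and 5.20 in run2. Beside En01 in run2 it had 69737, 96119, 70083 and 57068 RNA-side counts against 5056, 6334, 4123 and 4175 plasmid-side counts, with effects of 5.88, 5.71, 5.49 and 5.87 and a fold change of 5.75 (SE 0.08, edgeR adjusted p = 5.2e-19). The next were chr17:41150364-41150564, with means of 2.53 and 4.19, and chr12:6976585-6976785, with 2.76 and 3.92.

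The effects of the same elements beside different enhancers correlated more closely in run2 than in run1. The correlation of effects between any 2 of the 8 enhancers, over at least 1063 elements, had a median of 0.51 in run1 and 0.80 in run2, where the single RNA-side libraries also resembled each other more. Positive elements had the highest medians, at 0.74 and 0.92, and random elements had 0.33 and 0.66. These are correlations over elements that share libraries and are given as a description. Of the 62 REST elements measured beside all 8 enhancers, 4 in run1 and 15 in run2 were below 0 beside all of them, or 6.45% and 24.2%, where random elements gave 2.73% and 13.2%. In each run 10 of the 62, or 16.1%, were above 0 beside all of them, where random elements gave 12.0% and 15.8%.

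Few elements differed beside 1 enhancer from their mean over the others in run1. The limma test called 31 of 10240 pairs, or 0.303%, of which 9, or 0.0879%, were below and 22, or 0.215%, above the other enhancers, and 18 were positive elements. This count fell to between 5 and 8 without any 1 plasmid-side library and was 69 without RNA-side library 1 and 48 without RNA-side library 4. The call that was lost under none of the alternatives among those named in run1 was the positive element chr10:102295529-102295729 beside En01, at 3.58 against 2.28 beside the other 7 (difference 1.29, SE 0.12, limma adjusted p = 0.00409).

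In run2 the same test called 917 of 10240 pairs, or 8.96%, with 418 below, or 4.08%, and 499 above, or 4.87%, and 540 to 553 without any 1 plasmid-side library. Beside En08, 12 of 79 REST pairs were called below the others and 3 above, or 15.2% and 3.80%. All classes gave 11.3% and 4.83% there. Beside En06 6 were called below and 3 above of 79, or 7.59% and 3.80%, where all classes gave 2.58% and 2.20%. Beside En07 4 of 80 were called below and 5 above, or 5% and 6.25%, where all classes gave 9.87% and 4.30%. Above the others were 7 of 80 beside En04, or 8.75% against 4.99% of all classes, and 6 of 78 beside En01, or 7.69% against 9.75%. Over all 8 enhancers 4.07% of REST pairs were called below and 5.37% above, close to the shares of all pairs. Positive elements were called above the others in 26 of 66 pairs beside En01 and 24 of 63 beside En02, or 39.4% and 38.1%. They were called below the others in 27 of 66 beside En07 and 27 of 66 beside En08, or 40.9% and 40.9%. CTCF elements were called above in 12 of 75 pairs beside En01 and 11 of 69 beside En02, or 16% and 15.9%. Beside En07 20 of 74 were called below, or 27.0%. All classes gave 9.75% above beside En01, 9.09% above beside En02, 9.87% below beside En07 and 11.3% below beside En08.

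The largest differences beside a single enhancer in run2 were led by GFI1 and random elements. The GFI1 element chr17:37050566-37050766 gave 3.17, 2.99, 3.12 and 3.35 in the 4 libraries beside En07, from 1526 barcodes, and between 0.70 and 1.89 beside the other enhancers. Its difference was 1.97 (SE 0.10, limma adjusted p = 8.3e-09). In run1 its effect was also highest beside En07, at 1.38.

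Beside En08 in run2, 37 of 247 GFI1 pairs were called below the other enhancers and 12 above, or 15.0% and 4.86%, where all classes beside En08 gave 11.3% and 4.83%. The largest of these decreases include 3 elements. The element chr12:92797646-92797846 had effects of 0.25, -0.10, -0.16 and 0.02 there, and between 1.07 and 2.02 beside the others. That difference was -1.49 (SE 0.13, limma adjusted p = 2.0e-06). For chr2:48373191-48373391 the means were 2.16 beside En08 and 3.72 beside the others (difference -1.56, SE 0.19, limma adjusted p = 6.5e-05). For chr15:81271121-81271321 they were 1.33 and 2.77 (difference -1.44, SE 0.16, limma adjusted p = 2.5e-05).

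Against the enhancers En09 to En21, with En16 left out for its few pairs, elements beside En01 to En08 were more often called higher. The enhancers En09 to En21 alone gave log2 ratios of RNA to plasmid from 0.97 to 3.70 in run1 and from -0.20 to 2.95 in run2. With random elements they gave -0.64 to 1.86 in run1, above each of En01 to En08, and -0.63 to 2.43 in run2, where En09, En10 and En12 at -0.63, -0.63 and -0.58 lay below En05 and En08. In run1 limma called 120 of 1327 elements, or 9.04%, with 117 higher, or 8.82%, and 3 lower, or 0.226%, beside En01 to En08. Without any 1 plasmid-side library the count was 70 to 74. In run2 it called 410 of 1318, or 31.1%, with 306 higher and 104 lower. On summed random counts there were 49 higher and 14 lower in run1 and 221 and 167 in run2, and TMM within each enhancer gave 82 and 5, and 230 and 153.

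REST elements had a median closer to the random level beside En01 to En08 than beside En09 to En21. The median of the 80 element means was -0.14 against -0.44 in run1, with 19 elements called higher and 0 lower by limma, or 23.8% called higher against 8.82% of all elements, and 34 and 0 at an unadjusted p under 0.05. In run2 it was -0.38 against -0.55, with 24 called higher and 7 lower, or 30% and 8.75% against 23.2% and 7.89% of all elements. The share called higher in run2 was thus near that of all elements, and near the 29.8% of GFI1, 28.8% of CTCF and 27.1% of CTCF_TAD elements. The median difference of run2 was 0.12 for REST and 0.08 for all elements. By single enhancer the groups overlapped. In run1 the REST medians over pairs ran from -0.35 to 0.03 beside En01 to En08. Beside En09 to En21 they ran from -0.48 to -0.06. The ranges of run2 were -0.67 to -0.07 and -0.69 to -0.02.

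Single REST elements differed by more than their error. The element chr5:7094843-7095043 had a mean of 0.03 beside En01 to En08 and of -0.91 beside En09 to En21 in run1, a difference of 0.95 (SE 0.15, limma adjusted p = 0.00131). In run2 its means were -0.43 and -0.83, and that difference did not pass (0.40, SE 0.17, limma adjusted p = 0.0819). For chr19:4769653-4769853 the means of run2 were -0.89 and -1.56 (difference 0.67, SE 0.10, limma adjusted p = 4.6e-06), and for chr19:5356460-5356660 they were -0.55 and -1.37 (difference 0.82, SE 0.14, limma adjusted p = 3.2e-05). Smirnov_C8 had -0.60 and -1.27 in run2 (difference 0.66, SE 0.16, limma adjusted p = 0.00223). Among the 5 lowest REST elements called in both runs, chr18:5868356-5868556, chr18:5370428-5370628 and chr5:8316794-8316994 had no difference that passed in either run. The difference of chr5:7010800-7011000 passed in run2 alone (0.44, SE 0.16, limma adjusted p = 0.0353), and that of chr12:11653592-11653792 in run1 alone (0.87, SE 0.18, limma adjusted p = 0.00745).

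Positive elements raised RNA more beside En01 to En08 in log2 terms. In run1 21 of 66 were called higher than beside En09 to En21 and 0 lower by limma, with medians of 0.81 and 0.40. In run2 50 of 65 were called higher and 0 lower by limma, with medians of 1.88 and 1.26. At an unadjusted p under 0.05 these were 28 and 0, and 54 and 1. The element chr10:102295529-102295729 had means of 4.01 and 2.64 in run2 (difference 1.37, SE 0.06, limma adjusted p = 5.7e-18). YY1 elements had medians of 0.63 and 0.70 in run2, with 31 called higher and 15 lower of 120, and random elements -0.08 and -0.01, with 73 and 69 of 613.

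Between the 2 orders, limma called 389 of 1329 elements over En01 to En08, or 29.3%, with 288 higher and 101 lower in run2, or 404 and 40 on summed random counts and 247 and 163 with TMM within each enhancer. REST elements were called lower in run2 in 14 of 80 and higher in 8, or 17.5% and 10%, where all elements gave 7.6% and 21.7% and random elements 9.76% and 11.9%. Positive elements were higher in run2 in 43 of 66, YY1 in 50 of 122 and CTCF in 36 of 75, or 65.15%, 41.0% and 48%. GFI1 elements were higher in 53 of 247, or 21.5%, near the 21.7% of all elements. The runs used different plasmid pools, so order and pool cannot be told apart.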

How the data were processed

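Per the file headers, the authors deposited raw barcode counts per construct for 4 cDNA-headed and 4 plmd-headed libraries per run, the number of barcodes, a mean signal that equals the mean of the plmd-headed columns, and their log2 fold change with its standard error. For the aligner, the counting tool and the genome build, no name is given in the sources used here. The authors' log2 fold change was used only to read the direction of the ratio.

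Lines with an asterisk in place of the element name, 8 per run beside En01 to En08, were dropped. The 4 elements listed under several names were kept as single elements. Pairs needed a mean plasmid-side count of 20. Each library was scaled, beside each enhancer, on the median over random elements of log2(count + 0.5) relative to the plasmid-side mean. Pairs were tested with edgeR 4.0.16 (quasi-likelihood) in R 4.3.3 over all pairs of a run. Elements, averaged within each library over at least 5 of En01 to En08, were tested with limma 3.58.1 (trend), as were differences from En09 to En21 (at least 7 enhancers), from the other enhancers (at least 4) and between runs. Adjustment was Benjamini-Hochberg over all features of a test. DESeq2 1.42.0 was an alternative. Element means of random elements had medians of -0.04 and -0.08. Tests were checked on simulated data. Other steps used Python 3.11.15, numpy 2.4.6 and pandas 2.3.3.

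Members, lists and tests were chosen with earlier results of these data known. The rule for named pairs took, per run, the 10 largest decreases and 5 largest increases among called pairs with a mean plasmid-side count of at least 100 and 1 sign in all 4 RNA-side libraries. Over enhancers it took the 8 lowest and 8 highest elements called in both runs and the 5 lowest and 3 highest REST elements, and the 5 largest differences each way. The text gives a part of these. Whether plasmid-side libraries came from separate preparations is not given, so p-values measure the spread between these libraries. PCR reads are not independent molecules.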

Additional observations from a re-analysis of the deposited data

Results flagged for a closer look

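Among the 4 RNA-side libraries of run1, 1 library stood apart for 3 named elements. Library 1 gave -1.79 for the GFI1 element chr18:9410600-9410800, against -0.63 to -0.43 in the other 3, and -1.39 for the REST element chr12:11653592-11653792, against -0.48 to -0.38. In library 1 each of these had 1 pair with 0 RNA-side counts, beside En02 and beside En05, and with a pseudocount of 5 the means of run1 were -0.71 and -0.56, both still called. Library 3 gave 2.38 for the positive element chr15:78240396-78240596, against 2.15 to 2.18. Chance alone gives such a library in about 1 in 20 groups of 4. The class medians and all elements named over both runs were screened in each run, so some such libraries are due by chance.

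Effects differed between groups of enhancers and between runs by tests of the difference itself, all with limma. Between En01 to En08 and En09 to En21, 120 elements differed in run1 and 410 in run2. Beside 1 enhancer against the others of En01 to En08, 31 pairs differed in run1 and 917 in run2. Between the runs, 389 elements differed.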

How the results depend on the processing

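Reading the headings literally turned every class median: in run1 to 0.13 for REST, -0.27 for YY1, -0.16 for GFI1, -0.080 for CTCF, 0.16 for CTCF_TAD and -0.85 for positive pairs, and in run2 to 0.22, -0.69, -0.30, -0.49, -0.082 and -1.79. Scaling on summed random counts gave 726 called elements (572 lower) and 63 differing from En09 to En21 in run1, against 400 (98 lower) and 120, and TMM within each enhancer gave 442 (199 lower) and 87. TMM over the whole run, which keeps each enhancer's own output in the value, gave 5157 and 7453 called pairs in run1 and run2, 1233 elements in run1, 1319 and 1318 elements differing from En09 to En21, and 578 and 5011 pairs differing from the other enhancers. Leaving out 1 library at a time gave 713 to 1470 called pairs, 70 to 141 elements differing from En09 to En21 and 5 to 69 pairs differing from other enhancers in run1, and 540 to 1015 of the last in run2. It gave medians of 0.83 to 0.91 and 1.81 to 1.87 for positive pairs, 0.15 to 0.18 and 0.29 to 0.33 for GFI1, and -0.18 to -0.15 for CTCF_TAD in run1. The cause was not tested. DESeq2 called 1691 and 4348 pairs, against 1149 and 4093. Centring the element means on the random elements gave 402 called elements (90 lower) in run1. In run2 it gave 872 (294 lower), against 911 (374 lower) without centring. This centring was a choice made after seeing the data, as were TMM within each enhancer and the centred edgeR fit. Of 106 named results, 29 lost their call under at least 1 alternative, 26 of them in run1, and 0 changed sign, where literal headings and TMM over the run were not applied to named results.

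Deviations of libraries with the same number on both sides correlated at 0.0003 to 0.04, and those of libraries with different numbers at -0.03 to 0.009. Values this small cannot tell whether the numbers pair the libraries. With a replicate block edgeR called 792 pairs in run1 and 4030 in run2, and limma 414 and 892 elements. The pairs called lower in run1 were then 43, against 114 without the block.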
